A study of Mus musculus with 51 samples.

Results

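Alveolar macrophages of gp91phox-/- mice (KO) were compared 4 h after conidia of the mould Aspergillus fumigatus at the dose labelled e7 had been instilled into the lungs and 4 h after a mock inoculation. The arrays were chosen by their titles, 3 with e7 conidia and 3 with mock, 6 of the 51 in the series. Macrophages were harvested fresh from the lungs, and 100 ng of total RNA per array was labelled with biotin and hybridized to an Affymetrix mouse expression array. The study set out to compare how these cells answer the mould in hosts with and without intact defences. A further 6 groups were used beside the comparison: KO macrophages of untreated mice at 0 h, after e6 conidia at 4 h, and after e7 conidia or mock at 2 h (3 arrays each), and macrophages of C57Bl/6 mice (WT) 4 h after e7 conidia or after mock (4 arrays each). The labels write the doses as e6 and e7, of which e7 is the larger, and give no age. For the WT mock arrays at 4 h, the title says mock but the treatment field speaks of conidia; grouping went by the title. Both groups of the main comparison carry the Cybb disruption, so that comparison shows the response of KO cells, and the part of the genotype in it is seen only against the WT arrays. The labels call the arrays of a group biological replicates without stating how many mice stood behind each. The p-values of the fits rest on the spread within groups, pooled over all 51 arrays. That spread may be partly technical and can differ from the spread among the 6 arrays compared.

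gp91phox, the product of Cybb, is the catalytic membrane subunit of the phagocyte NADPH oxidase, which turns oxygen into superoxide during phagocytosis; mice and people without it are prone to invasive aspergillosis. Alveolar macrophages are the first phagocytes to meet inhaled conidia. They recognise cell wall sugars through receptors such as dectin-1 and Toll-like receptors, which lead through the kinase Syk, the adaptor MyD88 and the transcription factor NF-kB to cytokines and to chemokines that call neutrophils from the blood.

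The signal of Cybb, the targeted gene, was read first. It was 511, 471 and 535 on the KO arrays with e7 conidia and 267, 205 and 309 on the KO arrays with mock, against 2192 to 4436 and 2103 to 2927 in WT at 4 h. All 6 KO arrays were below all 8 WT arrays, and within KO the e7 arrays were above the mock arrays without passing the test (log2 difference 0.98 ± 0.31, adjusted p = 0.198). Where the Cybb probes lie relative to the disrupted stretch was not established here. All 15 measured alveolar macrophage markers were above a signal of 50 on at least 1 of the 6 arrays, and their summed signal was 124964 to 129163 with e7 and 133319 to 144955 with mock (exact permutation p = 0.1, the smallest that 3 arrays against 3 allow; adjusted over 14 array measures 0.35). The summed signal of 13 neutrophil markers was 1926 to 3106 with e7 and 1954 to 3986 with mock. On all 6 arrays Camp, Elane and Mpo were at 50 or less, while S100a8 was at 810 to 2019, Mmp8 at 337 to 582 and Csf3r at 241 to 352. The remaining neutrophil markers lay on both sides of 50. Control probes at the 3' end were brighter than those at the 5' end, a usual check of RNA quality, by a log2 ratio of 0.93 to 1.18 with e7 and 1.41 to 2.61 with mock, without overlap (exact p = 0.1, adjusted 0.35). With this ratio as a covariate, the count of calls with signals under 50 set to 50, given next, was 69 in place of 84, and Il1a, Rgs1, Hbegf, Aif1l, Sema6c, Timm44 and Npc2 were not called (adjusted p 0.0503 to 0.0689). Their differences were then 1.66, 1.51, 1.07, -2.37, -2.27, -0.78 and -0.45, close to those given below without it. In such bulk samples fewer cells of a type and less RNA per cell cannot be told apart.

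With e7 conidia, KO macrophages had more RNA for the neutrophil attractant Cxcl1, the cytokine Il1a, the G-protein regulator Rgs1 and the growth factor Hbegf, and less RNA for the cholesterol carrier Npc2 and a set of mostly dim genes led by Aif1l, Uroc1, Sema6c and Rusc2. Hbegf overlapped between the groups, while the other genes named here did not. Few genes passed the test. On signals as deposited, 1 of 22626 probe sets was called at an adjusted p under 0.05 (0.00442%), with 1587 at an unadjusted p under 0.05. It was Man2c1os, at 4.5, 0.746 and 2.62 with e7 and 7.85, 31.5 and 43.3 with mock, a difference between signals under 50 on every one of the 6 arrays. With signals under 50 set to 50, which removes such differences, 84 of 19562 probe sets passed (0.429%). Of these, 18 were higher (0.092%) and 66 lower (0.337%), and 1944 had an unadjusted p under 0.05. After quantile normalization 56 were called, 33.9% of them higher against 21.4% without it. Of the 84, 47 had a mean signal under 100 in the brighter group, 7 of them higher and 40 lower. Counting each gene by its brightest probe set, 9 of 11050 genes tested were higher (0.0814%) and 40 lower (0.362%).

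The count of calls with the floor of 50 turned on single arrays. Dropping e7 replicate 1, 2 or 3 gave 116, 47 or 23 calls, and dropping mock replicate 1, 2 or 3 gave 158, 287 or 97. As deposited the same steps gave 5, 1 or 3 calls for e7 and 8, 13 or 12 for mock. Mock replicate 2 was the array whose removal raised both counts most. It had the highest mock signal of Cxcl2 (2889 against 967 and 966), Il1b and S100a9. In what follows, differences are log2 differences, e7 minus mock, on signals floored at 50, with the limma standard error after ±, and "rose" and "fell" mean an adjusted p under 0.05 on that scale; a fold understates the change of a gene whose dimmer group lies under 50. In the comparison of e7 with mock, no gene described from here on passed the test on signals as deposited.

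Cxcl1 gave the largest rise, and it was the 1 gene called of 5 neutrophil-attracting CXC chemokines measured. Cxcl1 was at 470.1, 369 and 601 on the e7 arrays and 64.5, 45.1 and 66.0 on the mock arrays, and at 39.3 to 50.2 in untreated KO mice. Every e7 array was more than 5 times as bright as every mock array, and mock lay close to untreated. The rise was 7.88-fold (2.98 ± 0.46, adjusted p = 0.000395; as deposited 0.0837), and it was called without each of the 6 arrays in turn (adjusted p 0.00113 to 0.00791) and in 16 of 18 alternative settings. Cxcl2, its neighbour on chromosome 5, was at 7062, 5172 and 6808 with e7 and 967, 2889 and 966 with mock, without overlap, but with mock replicate 2 about 3 times as bright as the other mock arrays. Its difference, 4.52-fold, did not pass the test (2.18 ± 0.79, adjusted p = 0.288). Of the other members measured, Cxcl5, Cxcl15 and Ppbp were under 50 on all 6 arrays.

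The 250 bases before the start sites of Cxcl1 and Cxcl2 are shown because these were the 2 largest differences among the genes named on the higher side. The longest run of letters that both windows share, GGGAATTTCCCTGG, is in capitals; it holds a match to the consensus that NF-kB binds. Sequences are RefSeq's for GRCm38.p6, plus strand, at chr5:90890995-90891244 and chr5:90903649-90903898.
Cxcl1: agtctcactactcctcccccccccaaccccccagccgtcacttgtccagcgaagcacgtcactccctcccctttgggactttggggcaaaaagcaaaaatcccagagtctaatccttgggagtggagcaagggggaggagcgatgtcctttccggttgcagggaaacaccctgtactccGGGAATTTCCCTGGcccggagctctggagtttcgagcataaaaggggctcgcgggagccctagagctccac
Cxcl2: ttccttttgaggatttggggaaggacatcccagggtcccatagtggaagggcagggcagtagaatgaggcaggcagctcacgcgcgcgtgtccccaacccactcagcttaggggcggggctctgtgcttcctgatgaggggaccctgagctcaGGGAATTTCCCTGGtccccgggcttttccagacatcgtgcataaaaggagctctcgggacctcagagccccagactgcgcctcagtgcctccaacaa
The shared run lay 71 to 58 bases before the start of Cxcl1 and 97 to 84 bases before that of Cxcl2. On either strand it was found in 2 of 32851 promoter windows of this length (0.00609%), the 2 it was taken from. The NF-kB consensus, which overlaps it, was found on either strand in 5529 windows (16.8%). Of the 15 genes named on the higher side, 11 had a window in the table, and 3 of these held the consensus, Cxcl1, Cxcl2 and Plekhn1. A match describes the letters and does not show binding.

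**Figure D1:**
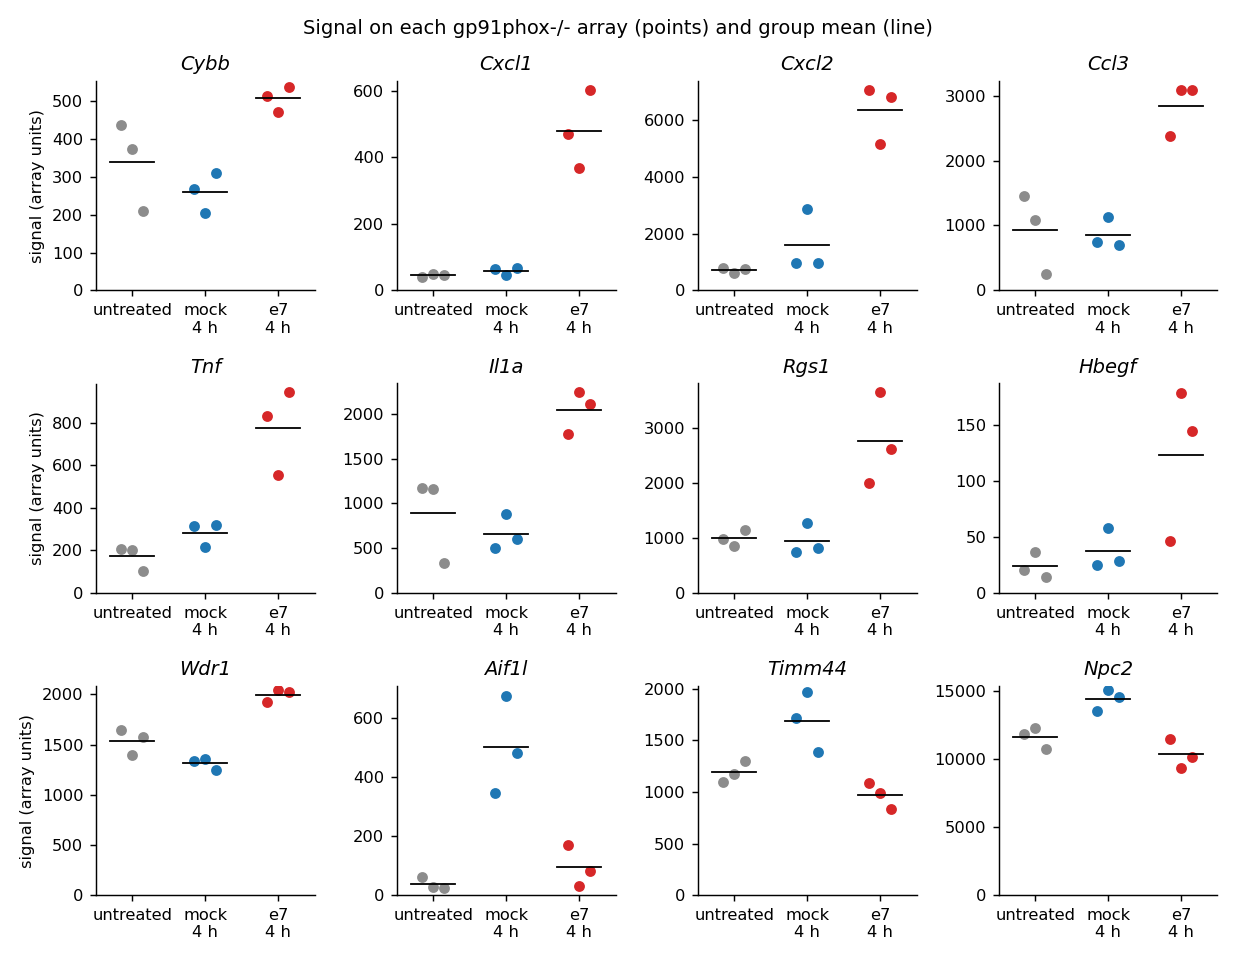
Signals of 12 named genes on each KO array (linear axis in array units, 1 point per array, line at the group mean) for untreated mice and for mock and e7 conidia at 4 h, 3 arrays each. Cxcl1 lies at 369 to 601 with e7 against 45.1 to 66.0 with mock, mock replicate 2 of Cxcl2 stands above the other mock arrays at 2889, and Aif1l, Timm44 and Npc2 are lower on all e7 arrays.

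Among inflammatory cytokines, Il1a rose and Tnf did not pass the test. Il1a, which encodes interleukin-1 alpha, a cytokine released by damaged or activated cells that acts on the interleukin-1 receptor, was at 1771, 2243 and 2113 with e7 and 499, 886 and 599.6 with mock. All e7 arrays were above all mock arrays, but untreated KO arrays ranged from 339.7 to 1175, so that part of the span between groups was also seen between untreated mice. The rise was 3.16-fold (1.66 ± 0.39, adjusted p = 0.0411), and it was lost without any one of the e7 arrays and without mock replicate 1 or 3 (adjusted p up to 0.141). Tnf, which encodes tumour necrosis factor, was at 831, 556 and 942 with e7 and 315, 216 and 318 with mock, again without overlap (2.72-fold, 1.44 ± 0.40, adjusted p = 0.107). Il1b was at 1406, 1436 and 2131 with e7 and 477, 1942 and 472 with mock, where mock replicate 2 lay within the e7 range (1.10 ± 0.92, adjusted p = 0.836). Il1rn, which encodes the soluble interleukin-1 receptor antagonist, was at 2891, 3058 and 3073 with e7 and 2824, 2852 and 1409 with mock (0.42 ± 0.30, adjusted p = 0.763). Il6, Il10, Il23a, Csf2, Csf3 and Ifng were under 50 on all 6 arrays. Of the 19 cytokines measured, 3 had e7 arrays all above mock (15.8%, against 5.83% of 12393 genes). Another 1, Il18, had them all below (5.26%, against 7.09%). The shares over all genes are not matched for brightness. Higher on all e7 arrays were 0.189% of genes with a mean signal under 50 and 11.6% to 12% of those at 200 to 2000. In the other ranges of brightness this share was 0.943% to 7.77%.

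Of 21 CC and other chemokines, none passed the test and 1, Ccl3, had all e7 arrays above mock (4.76%, against 5.83% of all genes). Ccl3, an inflammatory chemokine, was at 2379, 3081 and 3079 with e7 and 739, 1129 and 705 with mock, and at 1459, 1082 and 247 in untreated KO mice, which overlapped the mock range on both sides (3.37-fold, 1.75 ± 0.72, adjusted p = 0.373). Its log2 standard deviation was 0.22 among the e7 and 0.37 among the mock arrays. The standard error draws on all groups, among them WT mock at 4 h, which ranged from 134 to 5022. Ccl4, encoded beside it, overlapped, at 146, 283 and 206 with e7 and 106, 199 and 123 with mock (0.57 ± 0.64, adjusted p = 0.943). The monocyte attractants Ccl2 and Ccl7 stayed dim, at 31.4 to 75.9 and 25.1 to 31.9 with e7.

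Rgs1, Hbegf and Wdr1 rose together with Cxcl1 and Il1a. Rgs1, which speeds the shut-off of G proteins behind chemokine receptors, was at 1996, 3666 and 2623 with e7 and 739.8, 1266 and 817 with mock, without overlap, and rose 2.93-fold (1.55 ± 0.35, adjusted p = 0.0322). Hbegf, a membrane-bound ligand of the EGF receptor, was dim, at 46.0, 178 and 145 with e7 and 24.8, 57.8 and 28.8 with mock. Its e7 replicate 1 lay within the mock range, while the other e7 arrays were more than 2 times as bright as any mock array; the difference was 1.05 ± 0.25 (adjusted p = 0.0433), and a dimmer Hbegf probe set also rose (0.64 ± 0.13, adjusted p = 0.0117). The log2 standard deviation of Hbegf was 0.98 among the e7 and 0.12 among the mock arrays. Its standard error also draws on groups under 50 on every array, such as untreated KO, which add no spread. The calls of Rgs1 and Hbegf were both lost without e7 replicate 2 or 3 and without mock replicate 1 or 3, with adjusted p up to 0.18 and 0.397.

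Wdr1, which helps cofilin to take actin filaments apart, rose from 1337, 1354 and 1249 with mock to 1923, 2044 and 2022 with e7. The arrays of each group lay close together and the groups far apart (1.52-fold, 0.60 ± 0.12, adjusted p = 0.0142). Its other probe sets differed by 0.85 ± 0.23 and 0.90 ± 0.29 (adjusted p = 0.0981 and 0.227), and the call was lost without e7 replicate 2 or 3 (adjusted p up to 0.0681). Another 4 genes, all dim, also rose. They were Plekhn1, a lipid-binding protein with a pleckstrin homology domain (133, 119.6 and 139 with e7 and 76.6, 31.0 and 70.5 with mock; 1.01 ± 0.21), Tmco4 (122, 96.4 and 84.5 with e7 and 19.2, 38.0 and 49.6 with mock; 1.0 ± 0.20), Chtf18, a subunit of an alternative clamp loader at the replication fork (127, 81.9 and 68.5 with e7 and 45.0, 62.9 and 48.8 with mock; 0.73 ± 0.13), and Rwdd2b (179, 172 and 202 with e7 and 132, 158 and 102 with mock; 0.51 ± 0.11). All e7 arrays of these 4 genes were above all mock arrays. Their adjusted p were 0.0201, 0.0144, 0.00568 and 0.024; Plekhn1 was lost without e7 replicate 3 or mock replicate 2 (up to 0.0923), Tmco4 without e7 replicate 1 (0.0717) and Rwdd2b without e7 or mock replicate 3 (up to 0.2). With a floor of 100, Tmco4 (0.096) and Chtf18 (0.11) were not called, while Plekhn1 (0.38) and Rwdd2b (0.51) were.

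Among signalling genes known to answer inflammatory stimuli, several were higher on every e7 array and none but Rgs1 passed the test. Of 17 NF-kB subunits and feedback genes, 6 had all e7 arrays above mock (35.3%, against 5.83% of all genes) and none all below. The median difference of the 17 was 0.20, against 0.00 over all genes. Of genes with a mean signal of 200 to 2000, 11.6% to 12% were higher on all e7 arrays. The subunit gene Rel came nearest to a call, at 141, 173 and 146 with e7 and 87.4, 105 and 50.4 with mock (0.98 ± 0.25, adjusted p = 0.063), and was called only without mock replicate 2 (0.0132). The others were Nfkb2 (0.73 ± 0.42), Bcl3 (0.79 ± 0.44), Rela (0.47 ± 0.37), Relb (0.45 ± 0.53) and Nfkbie (0.36 ± 0.31). The brightest probe set of Nfkbia, the inhibitor that NF-kB itself induces, was level, at 9933, 8652 and 8925 with e7 and 8391, 9796 and 9269 with mock. Other probe sets of Nfkbia were higher on all e7 arrays, and 1 probe set of Ikbkb was lower on all.

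Immediate-early transcription factors showed the same pattern, with 7 of 23 higher on all e7 arrays (30.4%, against 5.83% of all genes), none lower on all and none called. Egr1, a zinc-finger factor switched on by MAP kinases, was at 1556, 1262 and 1658 with e7, 348, 616 and 546 with mock and 221, 301 and 227 in untreated mice. The 3 groups stood in this order without overlap, and e7 was 3.03-fold above mock (1.60 ± 0.57, adjusted p = 0.272). Junb was at 260.4, 424 and 421 with e7 and 229.5, 195 and 62.6 with mock (1.35 ± 0.49), and Fosb, Atf3, Maff, Ier2 and Ier5 differed by 0.94, 0.84, 0.74, 0.41 and 0.33. Fos and Jun overlapped (-0.13 ± 0.24 and 0.09 ± 0.29).

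Among 16 G-protein signalling and stress-response genes, Rgs1 was called and 6 were higher on all e7 arrays (37.5%, against 5.83% of all genes). Plk2 and Plk3, kinases induced by mitogens and stress, did not overlap. Plk2 was at 252, 258 and 425 with e7 and 64.3, 191 and 103 with mock (1.48 ± 0.52, adjusted p = 0.265), and Plk3 at 606, 662 and 665 with e7 and 371, 403 and 276 with mock (0.90 ± 0.27, adjusted p = 0.169). Gadd45b, Zfp36, which speeds the decay of cytokine messages, and Cd83 differed by 0.71 ± 0.38, 0.78 ± 0.38 and 0.25 ± 0.26. Of 7 MAP kinase phosphatases, Dusp1 (1.02 ± 0.55) and Dusp16 (0.32 ± 0.33) were higher on all e7 arrays (28.6%). Of 12 inflammasome and interleukin-1 genes, 4 were higher on all e7 arrays (33.3%, against 5.83% of all genes), namely Il1a, Il1rn, Nlrp3 and Aim2. Lower on all were 3 (25%, against 7.09%), namely Casp1, Il18 and Il1rap. The sensor genes Nlrp3 and Aim2 thus lay above mock (0.38 ± 0.32 and 0.79 ± 0.43) while Casp1 and Il18, the protease and a cytokine it cuts, lay below (-0.24 ± 0.11 and -0.26 ± 0.10), none of them past the test.

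Among antioxidant genes, Txnrd1, which encodes thioredoxin reductase, was at 3323, 3729.6 and 3713 with e7 and 2027, 1899.6 and 2094 with mock (0.84 ± 0.28, adjusted p = 0.246). Its partner Txn1 and the superoxide dismutase Sod1 were lower on all e7 arrays (-0.28 ± 0.10 and -0.54 ± 0.20). Hmox1 overlapped, at 839, 1325 and 1033 with e7 and 699, 1764 and 481 with mock (0.32 ± 0.35), and its sign turned without mock replicate 3 (-0.084). None of 18 genes of this list passed the test. On all e7 arrays 2 were higher and 2 lower (11.1% each, against 5.83% and 7.09% of all genes). The 11.1% higher was no more than the 11.6% to 12% of genes with a mean signal of 200 to 2000.

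Replication and cell cycle genes leaned higher, with none of 28 called, 5 higher on all e7 arrays (17.9%, against 5.83% of all genes), none lower and a median of 0.24. They were the helicase subunits Mcm3 (1062, 968 and 1026 with e7, 727, 896 and 631 with mock; 0.45 ± 0.29), Mcm5 (344, 387 and 489.8 with e7 and 258, 284 and 137 with mock; 0.90 ± 0.31) and Mcm7 (0.23 ± 0.22) and the spindle checkpoint kinases Bub1 (0.34 ± 0.26) and Bub1b (0.25 ± 0.19). The median of the same list in WT at 4 h was -0.23. Against the 11.6% to 12% of genes with a mean signal of 200 to 2000, the excess of the 17.9% in KO was smaller.

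A further 6 genes were named by the rule that takes the largest differences without overlap, since fewer than 15 genes were called higher. Beside Cxcl2, Ccl3, Egr1 and Plk2, they were Cd37, a tetraspanin (366, 446 and 380.1 with e7, 201, 194 and 50.1 with mock; 1.66 ± 0.51, adjusted p = 0.182), and Plekho2, a cytosolic pleckstrin homology protein (709, 923 and 722 with e7 and 169, 271 and 357 with mock; 1.62 ± 0.54, adjusted p = 0.246). For Cd37, mock replicate 3 was about 4 times dimmer than the other mock arrays, and a second probe set of the gene differed by -0.04 ± 0.31.

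**Figure D2:**
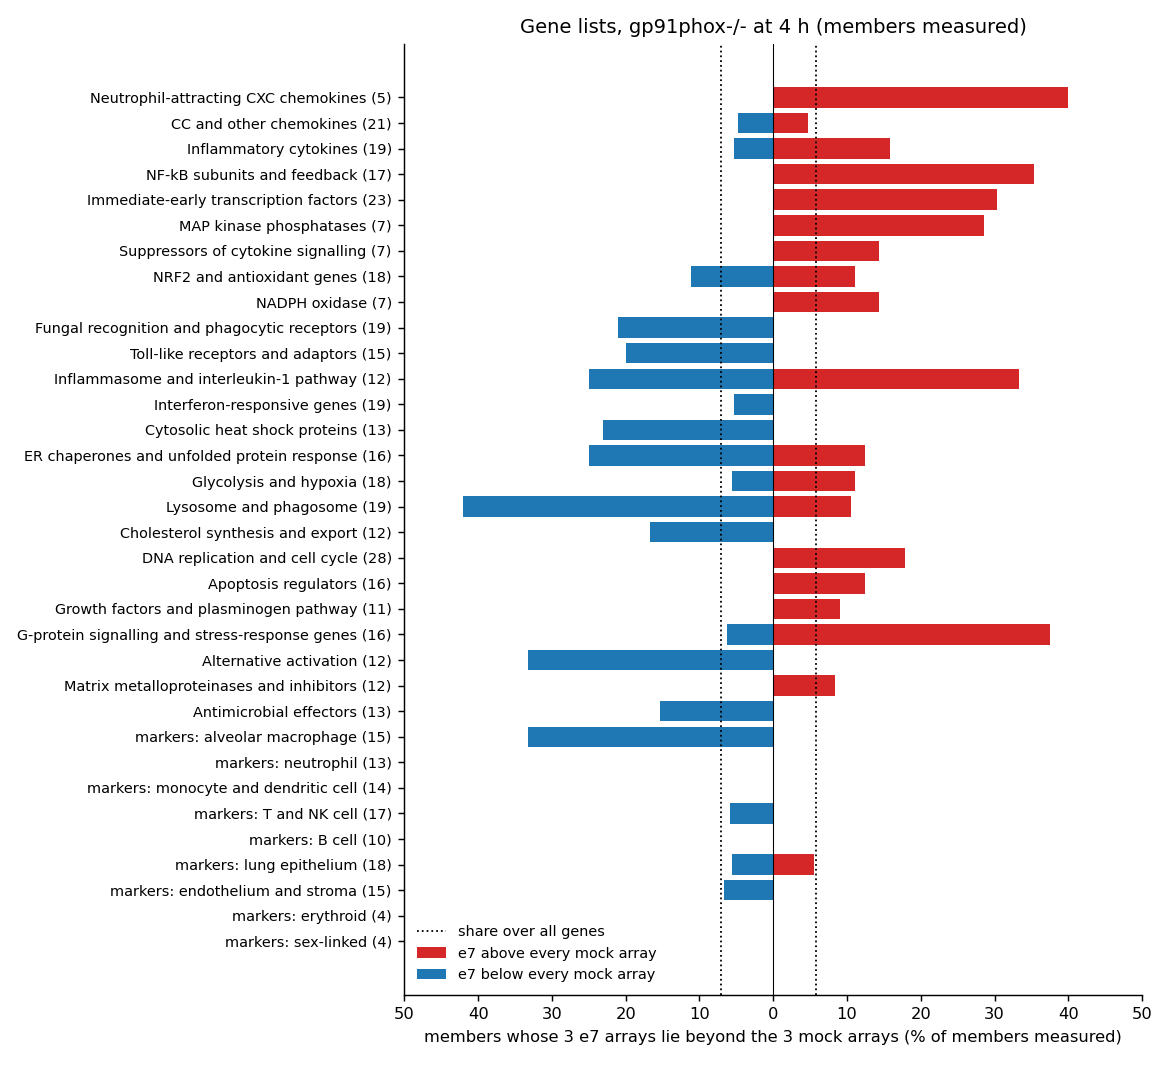
Bars give, for each gene list, the share of measured members whose 3 e7 arrays all lay above (right) or all below (left) the 3 mock arrays, with dotted lines at the shares over all genes, 5.83% above and 7.09% below. The NF-kB, immediate-early and G-protein and stress-response lists reach 30.4% to 37.5% on the right, and lysosome genes 42.1% on the left. The dotted lines are not matched for brightness. Of genes with a mean signal of 200 to 2000, 11.6% to 12% were higher on all e7 arrays. Of genes with a mean signal of 10000 or more, 71.7% were lower on all e7 arrays.

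On the lower side, the 4 largest falls were in Aif1l, Uroc1, Sema6c and Rusc2. Aif1l, an actin-binding relative of Aif1, was at 170.4, 30.5 and 83.9 with e7 and 347, 677 and 484 with mock (5.42-fold lower, -2.44 ± 0.56, adjusted p = 0.0337). Uroc1, the urocanase of histidine breakdown in the liver, was at 121, 76.4 and 99.1 with e7 and 201, 732 and 706 with mock (-2.27 ± 0.50, adjusted p = 0.024). In both genes every e7 array was below every mock array, and mock itself spanned about 2-fold or more.

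Sema6c, a transmembrane semaphorin of axon guidance, was at 163, 96.3 and 37.3 with e7 and 258, 504 and 641 with mock (-2.24 ± 0.53, adjusted p = 0.0411). Rusc2, an adaptor of vesicle transport, was at 19.2, 105 and 16.6 with e7 and 268, 244 and 236 with mock (-1.96 ± 0.46, adjusted p = 0.0403). Groups did not overlap for either gene. Other probe sets of these genes did not pass the test: those of Aif1l differed by -0.14 ± 0.33 and -0.03 ± 0.02, that of Uroc1 by 0.02 ± 0.02, those of Sema6c by 0.16 ± 0.11 and -0.05 ± 0.06, and that of Rusc2 was higher with e7 (0.89 ± 0.23, adjusted p = 0.067). Those probe sets had a mean signal under 100 in their brighter group.

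Of these genes, Aif1l, Sema6c and Rusc2 were also low before any instillation. In untreated KO mice Aif1l was at 63.0, 29.8 and 24.2, Sema6c at 129.8, 124 and 38.5 and Rusc2 at 33.8, 37.1 and 14.5, close to the e7 arrays at 4 h. After e6 conidia at 4 h Aif1l was at 485, 338 and 532, Sema6c at 1577, 404 and 572 and Rusc2 at 425, 282 and 404. The mock and e6 arrays were thus high and the e7 and untreated arrays low. The share of probe sets under 50 was 37.7% to 41.3% on the e7 arrays, 35.8% to 40.1% with mock, 32.6% to 33.1% with e6 and 43.5% to 44.4% in untreated KO mice. With that share as a covariate, an alternative chosen after seeing the data, Aif1l, Sema6c, Rusc2, Fcho1, Timm44 and Npc2 were no longer called (adjusted p 0.0514 to 0.0763), while Cxcl1 and the 8 other genes that rose were. Differences stayed close to those without the covariate, at -2.37 for Aif1l, -2.0 for Sema6c and -1.89 for Rusc2. Without e7 replicate 2 or 3, or mock replicate 2 or 3, the falls of Aif1l, Uroc1 and Sema6c were also lost (adjusted p up to 0.211, 0.103 and 0.305), and Rusc2 was lost without e7 or mock replicate 1 or 3 (up to 0.189).

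Of the other named falls, 8 were in dim genes. Dkk3, a secreted modulator of Wnt signalling, was at 86.1, 58.8 and 31.4 with e7 and 119, 104 and 152 with mock (-0.97 ± 0.18, adjusted p = 0.00591). Insrr, a receptor related to the insulin receptor, was at 98.6, 23.1 and 3.31 with e7 and 109.9, 108 and 128 with mock (-0.87 ± 0.14, adjusted p = 0.000927), and Mylpf, a myosin light chain of fast muscle, at 52.9, 55.7 and 31.7 with e7 and 115, 76.2 and 84.0 with mock (-0.78 ± 0.09, adjusted p = 1.06e-06). These levels lie near the floor: with a floor of 100 the differences were -0.31 for Dkk3, -0.20 for Insrr and -0.07 for Mylpf, none called. Insrr and Mylpf kept their calls without each array in turn, and Dkk3 lost its call without e7 replicate 3 (0.0867). The log2 standard deviation of Mylpf was 0.08 among the e7 and 0.31 among the mock arrays. For Insrr it was 0.57 and 0.14, and for Dkk3 0.40 and 0.28. The standard errors of these 3 genes also draw on groups under 50 on every array, which add no spread. The transcription factor Sox15 and the phosphodiesterase Pde10a were under 50 on all e7 arrays; with mock Sox15 was at 107, 78.8 and 81.8 and Pde10a at 97.5, 77.7 and 90.6, so their differences (-0.82 ± 0.14 and -0.82 ± 0.18) depend on where the floor is set. Fcho1 (-1.04 ± 0.23), which nucleates clathrin pits, the hair keratin Krt83 (-0.90 ± 0.20) and a, the agouti gene (-0.70 ± 0.14), completed this set; with a floor of 100 Fcho1 was at -0.14, Krt83 at -0.09 and a at -0.06, none called. Sox15 (-0.03), Pde10a (0), Sema6c (-1.89, adjusted p = 0.0557) and Timm44 (-0.79, adjusted p = 0.0565) were not called with that floor either.

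Brighter genes also fell. Timm44, which anchors the import motor of the mitochondrial inner membrane, was at 1090.5, 990.0 and 834 with e7 and 1711, 1969 and 1387 with mock (1.73-fold lower, -0.79 ± 0.19, adjusted p = 0.0468), and both of its other probe sets were lower on all e7 arrays (-0.40 ± 0.19 and -0.60 ± 0.32). Ncbp2, a subunit of the nuclear cap-binding complex, was at 908, 861 and 1039 with e7 and 1149, 1584 and 1775 with mock (-0.66 ± 0.14, adjusted p = 0.024), with other probe sets at -0.32 ± 0.23 and 0.19 ± 0.23. BC029722 was at 141, 181 and 223 with e7 and 354, 299 and 374 with mock (-0.94 ± 0.20, adjusted p = 0.0192). Calls were lost without e7 replicate 2 or 3 or mock replicate 1 or 2 for Timm44 (adjusted p up to 0.262), and without e7 replicate 1 or 2 or mock replicate 3 for Ncbp2 and BC029722 (up to 0.14 and 0.0969).

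Of the lysosome genes, which serve the digestion of engulfed material, Npc2 fell. Npc2, which carries cholesterol out of lysosomes, fell from 13529, 15078 and 14561 with mock to 11510.3, 9341 and 10172 with e7 (1.4-fold lower, -0.48 ± 0.11, adjusted p = 0.0411), and a second probe set was also lower on all e7 arrays (-0.24 ± 0.10). The call was lost without e7 or mock replicate 2 or 3 (adjusted p up to 0.22). Of 19 lysosome and phagosome genes, 8 were lower on all e7 arrays (42.1%, against 7.09% of all genes), among them the cathepsins Ctsb, Ctsc, Ctsd, Ctsh, Ctsk and Ctss and the hexosaminidase subunit Hexa. The share over all genes is not matched for brightness, and Npc2, Ctsd and Ctss are bright. Lower on all e7 arrays were 28.3% of genes with a mean signal of 5000 to 10000 and 71.7% of those at 10000 or more. Ctsd was at 13609.6, 12111 and 14041 with e7 and 17357, 16568 and 16182 with mock (-0.34 ± 0.12), and Ctss at 16264, 14147 and 15926 with e7 and 19557, 18043 and 20159 with mock (-0.32 ± 0.12). Ctsz and Npc1 went the other way (0.22 ± 0.17 and 0.23 ± 0.16), and Npc2 was the 1 gene of the list that passed the test.

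Most of the brightest genes were lower on all e7 arrays. Of 106 genes with a mean signal of 10000 or more over the 51 arrays, 76 were lower on all e7 arrays (71.7%) and 1 was higher, with a median difference of -0.22; of 314 genes at 5000 to 10000, 28.3% were lower on all e7 arrays, with a median of -0.13. After quantile normalization, which gives all arrays the same distribution, the medians of these 106 and 314 genes were 0.00 and -0.03, and Npc2 was no longer called. The alveolar macrophage genes Chil3 (-0.33 ± 0.14), Mrc1 (-0.22 ± 0.08), Fabp5 (-0.23 ± 0.10) and Pparg (-0.25 ± 0.24), the lysozymes Lyz1 (-0.28 ± 0.16) and Lyz2 (-0.39 ± 0.14), and the chemokine Ccl6 (-0.28 ± 0.10) were lower on all e7 arrays with none called. All but Pparg averaged over 10000 in both groups. The signs of Fabp5 and Ccl6 turned after quantile normalization.

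**Figure D3:**
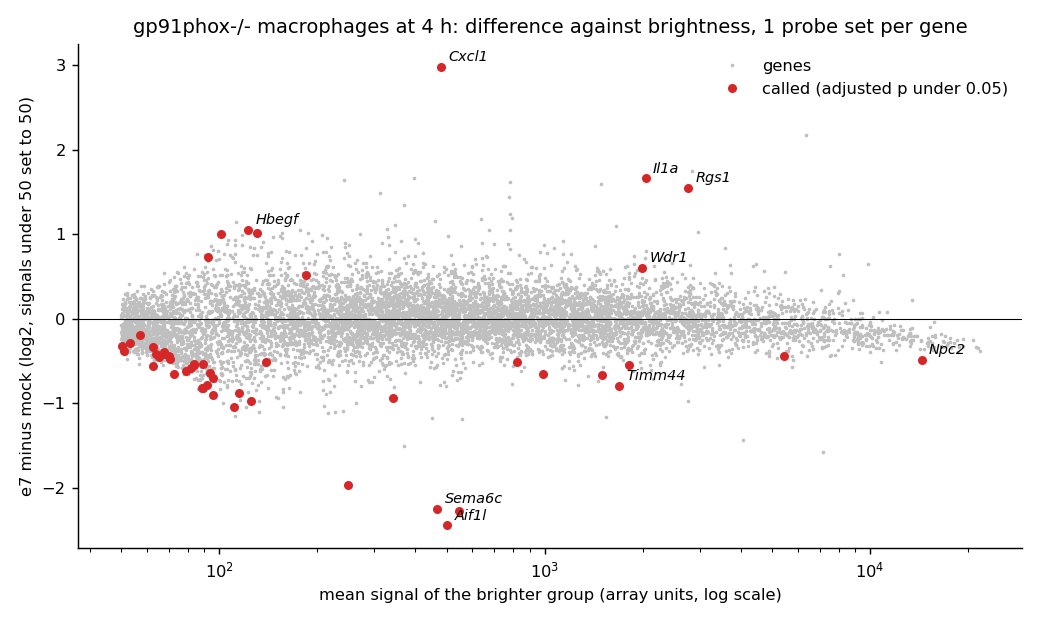
Log2 difference, e7 minus mock with signals under 50 set to 50, against the mean signal of the brighter group (log axis), 1 point per gene, with called genes in red. Cxcl1 stands highest at 2.98, many called falls lie at a mean signal under 100, and the brightest genes lie mostly below 0.

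None of 19 genes of fungal recognition and phagocytic receptors passed the test. Clec7a, which encodes dectin-1, was at 12280.5, 11434 and 12479 with e7 and 14761, 13868 and 13154 with mock (-0.21 ± 0.13, adjusted p = 0.697), a bright gene whose sign turned after quantile normalization. The Fc receptor gene Fcgr2b was at 2054, 2322 and 2249 with e7 and 2725, 3426 and 2708 with mock (-0.41 ± 0.27), and the lectin gene Lgals3 at 12150.1, 11981 and 12374 with e7 and 15933, 15304 and 15013 with mock (-0.34 ± 0.12). With Mrc1 these were the 4 of 19 members lower on all e7 arrays (21.1%, against 7.09% of all genes). No member was higher on all by its brightest probe set, though another probe set of Clec4e was. Syk overlapped, at 5195, 5396 and 5019 with e7 and 5075, 5235 and 5255 with mock. Of 15 Toll-like receptor and adaptor genes, Tlr2, Tlr4 and Tirap were lower on all e7 arrays (20%, against 7.09% of all genes). Their differences were -0.17 ± 0.14, -0.30 ± 0.20 and -0.31 ± 0.13, and no gene of the list passed the test.

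No chaperone gene passed the test. Over all genes, 5.83% were higher and 7.09% lower on all e7 arrays. Of genes with a mean signal of 10000 or more, 71.7% were lower on all. Of 13 cytosolic heat shock genes, Hspa8 (10756, 11038 and 11464 with e7, 15121, 13961 and 13584 with mock; -0.36 ± 0.18), Dnaja1 (-0.20 ± 0.32) and Hsph1 (-0.35 ± 0.32) were lower on all e7 arrays, none was higher on all, and none was called. The ER chaperones Hspa5 (11172, 11111 and 11946 with e7, 16103, 14122 and 13705 with mock; -0.36 ± 0.11), Hsp90b1 (-0.21 ± 0.12) and Canx, with the transcription factor Xbp1 (-0.32 ± 0.11), were the 4 of 16 unfolded-protein genes lower on all e7 arrays, while Ppp1r15a (0.99 ± 0.42) and Trib3 (0.35 ± 0.28) were higher. Oxidase subunits other than Cybb overlapped, among them Cyba (0.02 ± 0.27), Ncf1 (0.37 ± 0.28), Ncf4 (-0.19 ± 0.25) and Rac2 (0.32 ± 0.30). Interferon-responsive genes showed 1 of 19 lower on all e7 arrays (Ifih1), none higher and none called, though another probe set of Stat2 was higher on all.

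Over all genes, 5.83% were higher and 7.09% lower on all e7 arrays. By the brightest probe set of each gene, as counted in all lists, the remaining lists held no further call. With every probe set counted, 1 of the apoptosis list and 1 of the glycolysis and hypoxia list were called higher. Of 11 growth factor and plasminogen genes, Hbegf was called and Ereg was higher on all e7 arrays. Of 16 apoptosis regulators, Bcl2l1 (0.24 ± 0.21) and Cflar (0.33 ± 0.20), which both protect cells from death signals, were higher on all e7 arrays, and of 18 glycolysis and hypoxia genes Pkm (0.43 ± 0.28) and Pfkl (0.76 ± 0.28) were higher and Pgk1 (-0.34 ± 0.19) lower. Of 12 genes of alternative activation, Chil3, Mrc1, Retnla (-1.10 ± 0.59) and Tgm2 (-0.19 ± 0.14) were lower on all e7 arrays (33.3%). Chil3 and Mrc1 are bright, and 71.7% of genes with a mean signal of 10000 or more were lower on all. Of 12 cholesterol genes, the enzymes Hmgcs1 (-0.43 ± 0.21) and Fdft1 (-0.44 ± 0.22) were lower on all e7 arrays (16.7%). Socs6 of 7 suppressors of cytokine signalling (0.46 ± 0.26) and Timp2 of 12 metalloproteinase genes (0.28 ± 0.30) were the single members of their lists without overlap, both higher.

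The response of KO macrophages was then set against that of WT macrophages at the same dose and time, by testing the difference between the 2 responses. The ubiquitin ligase adaptor Klhl21, Gdap10, the growth factor Ereg, the transcription factor Maff and the ER chaperone Hyou1 had the lower response in KO, which for Hyou1 meant a mean below mock. The replication and cell cycle genes Mcm2, Mcm3 and Bub1b had the higher response in KO; their means lay below mock in WT and above it in KO, where Mcm2 overlapped and none passed the test against mock. As deposited, 43 of 22626 probe sets differed between the responses (0.19%), 22 with the higher (0.0972%) and 21 with the lower response in KO (0.0928%). With the floor of 50, 508 of 19562 did (2.6%), 276 with the higher (1.41%) and 232 with the lower response in KO (1.19%). After quantile normalization 43.4% of 477 calls had the higher response in KO, against 54.3% without it. These counts changed by more than 1.5 times with most arrays. With the floor, dropping WT e7 replicate 1, 2, 3 or 4 gave 850, 62, 39 or 2891 calls, and dropping WT mock replicate 1, 2 or 3 gave 191, 115 or 188. Dropping KO e7 replicate 1, 2 or 3 gave 211, 35 or 133 calls, and dropping KO mock replicate 1 or 3 gave 253 or 128. As deposited they ranged from 5 to 2389, with each of the 14 arrays moving them by more than 1.5 times.

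Some WT arrays stood apart from others of their group. WT mock replicate 3 had a summed neutrophil marker signal of 30488, against 1344 to 1709 on the other WT mock arrays, and Cxcl2 at 419.7, 262, 14911 and 219.9 on WT mock replicates 1 to 4. WT e7 replicate 3 had a neutrophil sum of 9561, against 1110 to 1610, and WT e7 replicates 2 and 3 differed from 1 and 4 for several genes, as given below. Each of these arrays was left out in turn for the differences below. A fit without WT e7 replicate 2 keeps replicate 3, and the reverse, so the joint part of both was not tested.

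Klhl21, a substrate adaptor of a ubiquitin ligase, was at 273, 277 and 240.1 with e7 and 285, 289 and 287 with mock in KO, and at 789, 1714, 1920.1 and 396 with e7 and 207, 182, 179 and 243 with mock in WT. In KO every e7 array lay slightly below mock. WT e7 replicates 2 and 3 were the brightest, but each of the 4 WT e7 arrays was above every WT mock array and all 6 KO arrays compared with them. The responses differed by -2.45 ± 0.40 (adjusted p = 0.00128; as deposited 0.00829), and the call held without each of the 14 arrays in turn. Gdap10 was at 663, 603 and 613 with e7 and 536, 299.6 and 666 with mock in KO and at 1859, 3293, 5018 and 1441 with e7 and 460.0, 431, 395 and 371 with mock in WT (-2.24 ± 0.39, adjusted p = 0.00257; as deposited 0.00897), also called without each array in turn.

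Ereg, which encodes the EGF receptor ligand epiregulin, was at 219, 142 and 282 with e7 and 115, 87.6 and 119 with mock in KO and at 600.0, 452, 309 and 354 with e7 and 41.3, 46.0, 73.9 and 65.2 with mock in WT. All conidia arrays were above mock in both genotypes, with a difference of 0.96 in KO and 2.82 in WT (difference of responses -1.86 ± 0.40, adjusted p = 0.0173, lost without KO e7 replicate 2 at 0.0697). Maff was at 1749, 1637 and 2271 with e7 and 1212, 1154 and 998 with mock in KO and at 3109.9, 2726, 2386 and 1327 with e7 and 537, 469, 728 and 483 with mock in WT (-1.32 ± 0.31, adjusted p = 0.0248). Part of that difference lay in the mock arrays, which were about 2 times as bright in KO. The Maff call was lost without WT e7 replicate 2 or 3, WT mock replicate 2 or KO e7 replicate 2 (adjusted p up to 0.0764).

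Hyou1, an ER chaperone induced by low oxygen and unfolded protein, was at 1988, 1126 and 1079 with e7 and 2262, 1956 and 4059 with mock in KO and at 2719, 2743, 4176 and 1988 with e7 and 1549.6, 1625, 967 and 1112 with mock in WT. Its e7 mean was below mock in KO and above it in WT (-2.09 ± 0.45, adjusted p = 0.0173; lost without WT e7 replicate 3, KO e7 replicate 2 or KO mock replicate 3, at up to 0.0594). Dnajb1, an Hsp70 partner, overlapped in KO (1509, 1447 and 1779 with e7, 1564, 1836 and 1964 with mock) and was at 4457, 7908, 11352 and 2419.5 with e7 and 1928, 1884, 1923 and 1388 with mock in WT (-1.84 ± 0.50, adjusted p = 0.0438, called in 2 of 14 fits without 1 array). Over the 13 heat shock genes the median response was -0.14 in KO and 0.64 in WT. The apoptosis inhibitor Cflar differed by -1.01 ± 0.27 (adjusted p = 0.0417, called in 3 of 14 such fits) and the hexosaminidase subunit Hexa by -0.45 ± 0.12 (adjusted p = 0.0445, called in 1 of 14). The other genes named with a lower response in KO were Rusc2 (-2.31 ± 0.61), Fam214b (-1.96 ± 0.45) and Ndrg1 (-1.93 ± 0.55), called in 4 of 14, 9 of 14 and 2 of 14.

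On the other side, Tubgcp2, a subunit of the microtubule-nucleating gamma-tubulin complex, was at 444, 351 and 397 with e7 and 216, 323 and 274 with mock in KO and at 251, 174, 65.5 and 272 with e7 and 414, 505, 347 and 461 with mock in WT. It was higher with conidia in KO and lower in WT, without overlap in either, and the responses differed by 1.92 ± 0.38 (adjusted p = 0.014; as deposited 0.0389), called without each array in turn. Eri3, an exonuclease, differed by 1.94 ± 0.42 (adjusted p = 0.0173; as deposited 0.0451), called in 10 of 14 fits without 1 array. Cd37 (2.44 ± 0.68), the histone chaperone subunit Chaf1b (1.83 ± 0.46), Nol12 (1.90 ± 0.53) and the nuclease Pld4 (1.87 ± 0.53) were the other genes named there, called in 5 of 14, 6 of 14, 2 of 14 and 2 of 14.

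Of the replication and cell cycle genes, Bub1b was at 1049.9, 1108 and 1148 with e7 and 923, 873 and 981 with mock in KO and at 731, 559, 389 and 902 with e7 and 1064, 1069, 970.4 and 1238 with mock in WT (1.07 ± 0.25, adjusted p = 0.0248, called in 10 of 14 fits without 1 array). Mcm2 was at 341, 278, 143 and 541 with e7 and 676, 671, 603 and 1271 with mock in WT, where e7 replicate 3 was dimmest, against 669, 631 and 599 with e7 and 493, 634 and 434 with mock in KO (1.69 ± 0.47, adjusted p = 0.0459). Mcm3 differed by 1.40 ± 0.38 (adjusted p = 0.0438), and Mcm2 and Mcm3 were each called in 3 of 14 fits without 1 array. The oxidase subunit Rac2 (1.44 ± 0.39, adjusted p = 0.0438) and the interferon-induced GTPase Gbp2 (1.01 ± 0.28, adjusted p = 0.0438) also responded higher in KO, called in 3 of 14 and 5 of 14.

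Cxcl1, Cxcl2, Tnf, Il1a and Rgs1 did not pass the test of a difference in response from WT. Cxcl1 was at 1591, 1658, 1383 and 1206 with e7 and 53.4, 18.3, 388 and 46.9 with mock in WT, and every WT e7 array was at least 2 times as bright as every KO e7 array (difference of responses -1.12 ± 0.60, adjusted p = 0.31). Without WT mock replicate 3 it was -1.85, with an adjusted p of 0.0295. The difference for Cxcl2 was -1.78 ± 1.05 (adjusted p = 0.359), and without that array -3.20 (0.0124); the other 13 fits without 1 array called neither gene. Tnf differed by -1.33 ± 0.53 (adjusted p = 0.15, and 0.0704 to 0.333 without 1 array), Il1a by -0.02 ± 0.52 and Rgs1 by -0.40 ± 0.47 (adjusted p = 1 and 0.746). The response of Il1a was 1.66 in KO and 1.69 in WT.

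Of the 9 genes that rose in KO, 3 had the higher response in KO past the test: Plekhn1 (1.31 ± 0.28, adjusted p = 0.0173; as deposited 0.0451), Tmco4 (0.94 ± 0.27, adjusted p = 0.0491) and Chtf18 (0.69 ± 0.18, adjusted p = 0.0341). Of the 15 named falls, 8 had the lower response in KO, namely Rusc2, Mylpf (-0.78 ± 0.12, adjusted p = 0.000469), Insrr (-0.87 ± 0.19), Dkk3 (-0.97 ± 0.24), Sox15 (-0.82 ± 0.19), Pde10a (-0.97 ± 0.24), Ncbp2 (-0.80 ± 0.19) and a (-0.70 ± 0.19). Over all probe sets, 1.41% had the higher and 1.19% the lower response in KO. The genes counted here were picked on the same KO arrays, so their counts in both comparisons are not independent. Mylpf, Insrr, Dkk3, Sox15 and a were under 50 on all 8 WT arrays. Their floored WT response is therefore 0, and their difference of responses repeats the KO difference.

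**Figure D4:**
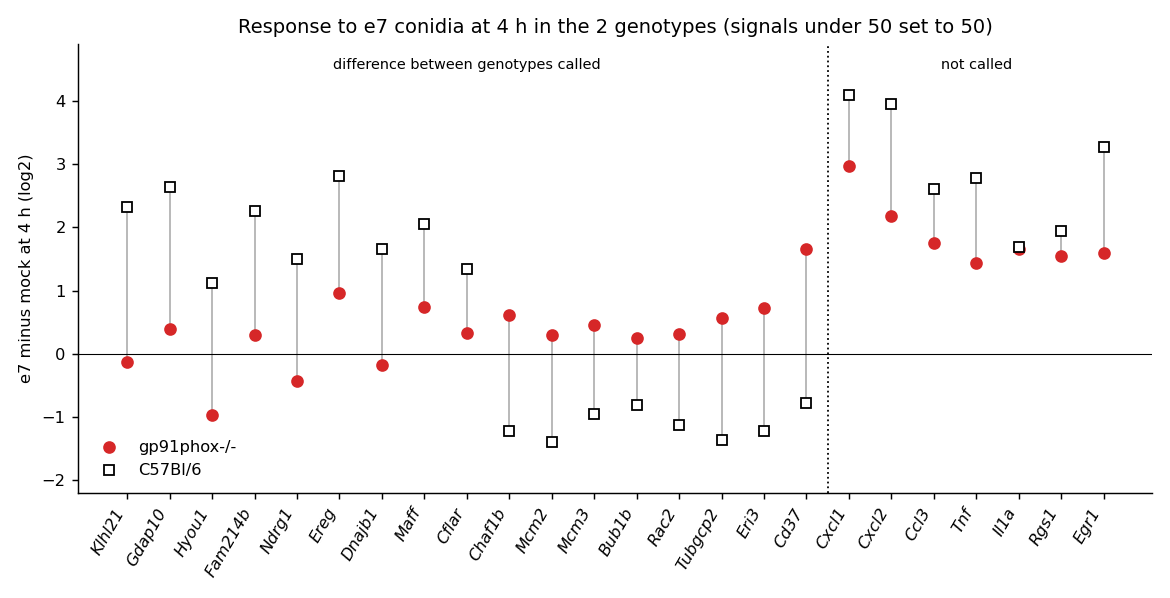
Log2 difference, e7 conidia minus mock at 4 h with signals under 50 set to 50, in KO (filled circles, 3 arrays against 3) and WT (open squares, 4 against 4), with a line joining both genotypes of a gene. Klhl21 and Ereg have the higher value in WT (2.82 against 0.96 for Ereg) and Tubgcp2 in KO, while the 7 genes on the right, led by Cxcl1, did not pass the test of the difference.

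Between 2 h and 4 h, the response to e7 conidia in KO was compared through the difference between the 2 responses, each against its own mock. Sema6c, Rusc2 and Aif1l led the genes with the lower response at 4 h: with e7 their means lay above mock at 2 h and below it at 4 h. Aif1l overlapped at 2 h, at 51.5 to 216 with e7 and 38.6 to 79.8 with mock. Bola1 and, of the 9 genes that rose at 4 h, Rwdd2b, Plekhn1 and Hbegf had the higher response at 4 h. Those 9 genes were picked on the same 4 h arrays. As deposited 384 of 22626 probe sets differed (1.7%), 71 higher (0.314%) and 313 lower at 4 h (1.38%). With the floor 951 of 19562 did (4.86%), 136 higher (0.695%) and 815 lower at 4 h (4.17%). The direction of most calls depended on scaling. After quantile normalization 170 of 294 were higher at 4 h as deposited (57.8% against 18.5%) and 186 of 488 with the floor (38.1% against 14.3%). With the share of probe sets under 50 as a covariate, chosen after seeing the data, 0 were called by limma as deposited (1708 at an unadjusted p under 0.05) and 795 of 999 were higher with the floor. The median difference over all probe sets as deposited was -0.24, and -0.01 after quantile normalization. Without single arrays, the count with the floor fell to 548 and 585 (4 h e7 replicates 2 and 3) and 581 (4 h mock replicate 3). As deposited, dropping 2 h e7 replicate 1 or 3 gave 222 or 155, dropping 4 h e7 replicate 1, 2 or 3 gave 641, 94 or 144, dropping 2 h mock replicate 1 gave 233, and dropping 4 h mock replicate 1 or 3 gave 222 or 113.

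Sema6c was at 797, 429 and 728 with e7 and 144, 162 and 318 with mock at 2 h, the reverse order of that at 4 h (-3.93 ± 0.75, adjusted p = 0.000821). Rusc2 was at 331, 215 and 416 with e7 and 51.7, 139 and 104 with mock at 2 h (-3.73 ± 0.65, adjusted p = 0.000251). Both calls held without each of the 12 arrays in turn. Aif1l differed by -3.25 ± 0.79 (adjusted p = 0.0102, lost without 4 h e7 replicate 2 at 0.0527), and Uroc1, Csdc2 and the secreted airway protein gene Bpifb1 by -2.60 ± 0.70, -2.63 ± 0.58 and -2.90 ± 0.72 (adjusted p = 0.0224, 0.00391 and 0.012). The share of probe sets under 50 was 32.7% to 37.3% with e7 and 42.0% to 43.2% with mock at 2 h. With that share as a covariate, only Rusc2 of these 6 genes was called.

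Bola1, a mitochondrial iron-sulfur assembly protein, was at 49.6, 64.9 and 41.4 with e7 and 209, 139.8 and 180.1 with mock at 2 h, and at 136, 183 and 147 with e7 and 62.9, 100.1 and 69.9 with mock at 4 h. It lay below mock at 2 h and above it at 4 h, without overlap at either time (2.69 ± 0.50, adjusted p = 0.000536), and was called in 24 of 24 alternatives. Rwdd2b was at 119.9 to 138 with e7 and 182, 187 and 164 with mock at 2 h, below mock there and above it at 4 h (0.97 ± 0.16, adjusted p = 0.000104; as deposited 0.00483). Plekhn1 was at 89.6, 83.5 and 80.8 with e7 and 82.9, 88.5 and 83.6 with mock at 2 h, overlapping (1.02 ± 0.30, adjusted p = 0.0412). Hbegf was at 11.0, 31.6 and 48.1 with e7 and 54.8, 21.1 and 59.6 with mock at 2 h (1.18 ± 0.35, adjusted p = 0.0445, called in 2 of 12 fits without 1 array). The ribosomal protein gene Rpl41 (2.95 ± 0.88), Cd37 (2.37 ± 0.72), the receptor gene Trem2 (1.92 ± 0.58), Rpp21 (1.91 ± 0.49) and Rabac1 (1.83 ± 0.49) were the other named genes with the higher response at 4 h, called in 4 of 12, 3 of 12, 4 of 12, 10 of 12 and 8 of 12 fits without 1 array.

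Cxcl1, Il1a, Tnf, Rgs1 and Ccl3 were not shown to respond differently at the 2 times. Cxcl1 was at 216, 302 and 342 with e7 and 66.4, 56.7 and 62.2 with mock at 2 h, below the e7 arrays at 4 h (difference of responses 0.79 ± 0.65, adjusted p = 0.564). Il1a overlapped between e7 and mock at 2 h, at 834, 750.4 and 871 with e7 and 834, 635 and 747 with mock, while at 4 h it did not (1.51 ± 0.56, adjusted p = 0.113). Tnf was at 484, 239 and 397 with e7 and 191, 168 and 128 with mock at 2 h (0.28 ± 0.57, adjusted p = 0.905). Rgs1 and Ccl3 differed between the times by 1.19 ± 0.50 and 1.71 ± 1.02 (adjusted p = 0.175 and 0.376).

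At 4 h, the doses were compared directly, e7 against e6 conidia in KO. Cxcl1, Il1a, Tnf, the NF-kB subunit Rel and the helicase subunit Mcm5 were higher at the larger dose, while Npc2, Ccl6, cathepsins and Uroc1, Sema6c, Rusc2 and Aif1l were lower. As deposited 203 of 22626 probe sets differed (0.897%), 75 higher (0.331%) and 128 lower with e7 (0.566%). With the floor 2171 of 19562 did (11.1%), 288 higher (1.47%) and 1883 lower with e7 (9.63%). After quantile normalization 317 of 477 were higher with e7 as deposited (66.5% against 36.9%) and 344 of 979 with the floor (35.1% against 13.3%). With the share under 50 as a covariate 1 was called as deposited, and 910 of 1560 were higher with the floor. The median difference over all probe sets as deposited was -0.14, and 0.00 after quantile normalization. With the floor, dropping e7 replicate 2 or 3 gave 1309 or 1275 calls. As deposited, dropping e6 replicate 1 or 3 gave 62 or 78, and dropping e7 replicate 2 or 3 gave 40 or 35. The 3' to 5' ratio was 1.83 to 3.99 with e6, above the 0.93 to 1.18 with e7 on every array.

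Cxcl1 was at 167, 122 and 119 with e6, between the mock and e7 arrays without overlap with either (e7 minus e6 1.81 ± 0.46, adjusted p = 0.00679; as deposited 0.118), and the call held without each of the 6 arrays in turn. Cxcl2 was at 3341, 1915 and 2197 (1.38 ± 0.79, adjusted p = 0.281). With e6 Tnf was at 303, 355 and 207 and Il1a at 815, 782 and 683, overlapping mock. For these genes e7 exceeded e6 by 1.43 ± 0.40 and 1.42 ± 0.39 (adjusted p = 0.016 and 0.0138). The Tnf call was lost without e6 replicate 3 or e7 replicate 1 or 3 (up to 0.0889), and that of Il1a without e7 replicate 2 or 3 (up to 0.0595). Rgs1, at 3196, 1229.5 and 2135 with e6, overlapped e7 (0.40 ± 0.35, adjusted p = 0.535).

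Rel was at 88.1, 80.7 and 76.1 with e6 (0.91 ± 0.25, adjusted p = 0.0127, lost without e7 replicate 2 at 0.0708). Mcm5 was at 160.2, 123 and 159, below every e7 array (1.46 ± 0.31, adjusted p = 0.00105; as deposited 0.0173), and was called in 17 of 18 alternatives. The mitotic kinase Aurka (1.07 ± 0.23, adjusted p = 0.0017) and Plk3 (0.85 ± 0.27, adjusted p = 0.0356; called in 1 of 6 fits without 1 array) were higher too, as was Wdr1, at 1296, 1224 and 1339.8 with e6 (0.63 ± 0.12, adjusted p = 0.000412; as deposited 0.0188). The 6 genes named by size on the higher side were the adhesion molecule Mcam (1.79 ± 0.38), the complement receptor C5ar1 (1.75 ± 0.44), Cdca7 (1.51 ± 0.36), the transcription factor Nfic (1.5 ± 0.34), Mcm5 and Cxcl1.

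On the lower side, Npc2 was at 15912, 14764 and 15661 with e6, above every e7 array (-0.58 ± 0.11, adjusted p = 0.00044; as deposited 0.021), and was called without each array in turn. Ccl6, Ctss, Ctsb and Ctsd were lower with e7 (e7 minus e6 -0.41 ± 0.10, -0.47 ± 0.12, -0.39 ± 0.10 and -0.43 ± 0.12; adjusted p = 0.00404, 0.00695, 0.0083 and 0.0165); after quantile normalization the difference of Ccl6 was -0.04 and no longer called. Uroc1, Sema6c, Rusc2 and Aif1l were lower with e7 (e7 minus e6 -2.92 ± 0.50, -2.95 ± 0.53, -2.51 ± 0.46 and -2.31 ± 0.56), as was Aph1a, a subunit of gamma-secretase, at 1909.7, 7209 and 1850.5 with e6 and 827, 749 and 508 with e7 (-2.11 ± 0.34, adjusted p = 3.34e-05). Alas2, the erythroid enzyme of heme synthesis, was bright on e6 replicates 2 and 3 alone (13.2, 926 and 1223; -2.60 ± 0.79, adjusted p = 0.0265) and was called in 2 of 6 fits without 1 array. The summed signal of the 4 erythroid markers, Alas2 among them, was 100.5, 1099 and 1289 with e6 and 58.8 to 116 with e7, and its part in other differences between the doses was not tested.

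**Figure D5:**
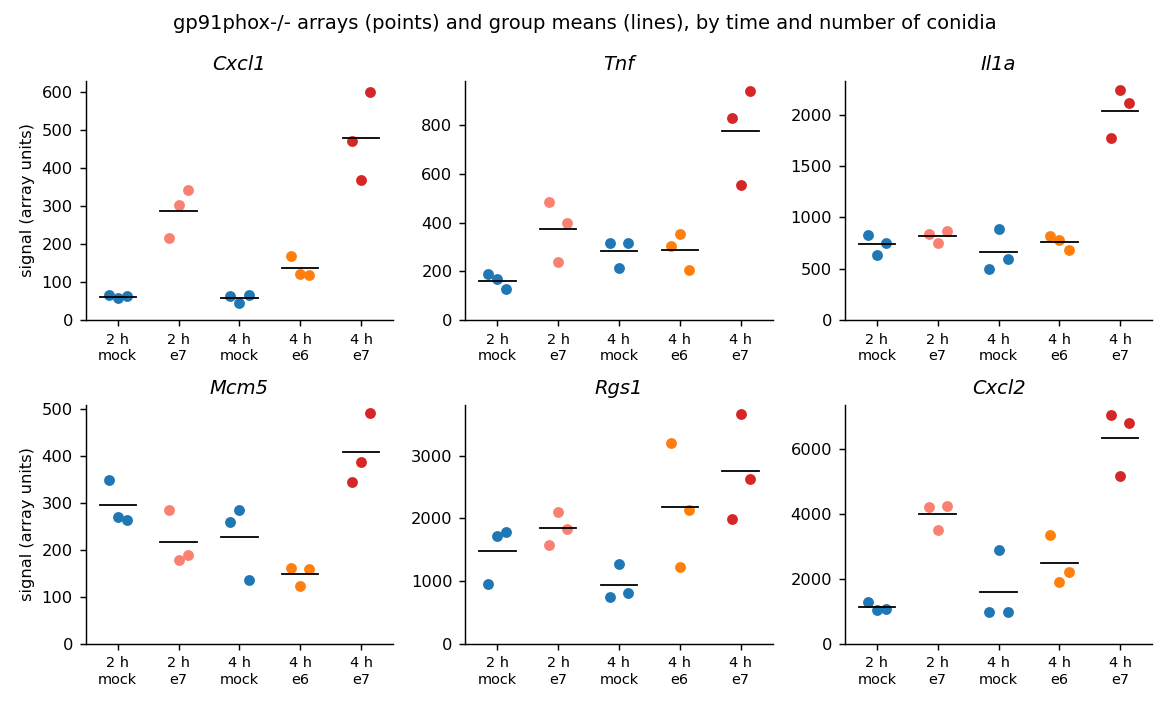
Signals of 6 named genes on each KO array (linear axis in array units, 1 point per array, line at the group mean) for mock and e7 conidia at 2 h and for mock, e6 and e7 conidia at 4 h, 3 arrays each. At 4 h Cxcl1 stands in the order mock, e6, e7 without overlap, Il1a with e7 lies above every array of the other groups shown, and Mcm5 is lower with e6 (123 to 160.2) than with e7.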

How the data were processed

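The deposited table holds linear signal intensities of 22690 probe sets on 51 arrays (30 WT, 21 KO); how the authors made them is not given in the sources used here beyond the names GCOS and RMA in the submitters' processing notes. The values are on a linear scale, and all arrays have a like trimmed mean. Every column was mapped to a sample, and the 64 control probe sets were left out.

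Signals were taken to log2 as deposited (22626 probe sets tested) and with signals under 50 set to 50 (19562 tested, the rest being at or under 50 on all arrays). Means of the 15 groups were estimated from all 51 arrays with limma (version 3.58.1, under R 4.3.3), and p-values were adjusted by Benjamini-Hochberg over all probe sets at a threshold of 0.05. A gene stands for its brightest probe set with 1 symbol (12393 genes; 20380 probe sets have 1 symbol, 691 several and 1555 none). Named genes were Cybb, the members of 34 gene lists (520 symbols, 461 measured), up to 15 called genes in each direction, filled where fewer were called with genes whose groups did not overlap and whose brighter group averaged at least 200, and 6 per direction in the other comparisons. Genes, lists and comparisons were chosen with earlier results of these data known. The fit of signals as deposited was tested on simulated data, with changes set only in probe sets averaging over 200. The fit with the floor was not tested in this way. Alternatives covered the floor, normalization, arrays in the fit, moderation, weights, covariates, a filter, a replicate block and leaving out each array.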

Additional observations from a re-analysis of the deposited data

Results flagged for a closer look

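Responses to e7 conidia at 4 h differed between the genotypes, by a test of the difference itself, for genes with the lower response in KO: Klhl21 (-2.45), Rusc2 (-2.31), Gdap10 (-2.24), Hyou1 (-2.09), Fam214b (-1.96), Ndrg1 (-1.93), Ereg (-1.86), Dnajb1 (-1.84), Maff (-1.32), Cflar (-1.01) and Hexa (-0.45), all on the log2 scale with signals under 50 set to 50. The higher response in KO was found for Cd37 (2.44), Eri3 (1.94), Tubgcp2 (1.92), Nol12 (1.90), Pld4 (1.87), Chaf1b (1.83), Mcm2 (1.69), Rac2 (1.44), Mcm3 (1.40), Bub1b (1.07) and Gbp2 (1.01). Of these 22 genes, Klhl21, Gdap10 and Tubgcp2 kept an adjusted p under 0.05 in limma without each of the 14 arrays in turn, and none of the others did.

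The KO response at 4 h differed in the same way from that at 2 h, lower at 4 h for Sema6c (-3.93), Rusc2 (-3.73), Aif1l (-3.25), Bpifb1 (-2.90), Csdc2 (-2.63) and Uroc1 (-2.60) and higher for Rpl41 (2.95), Bola1 (2.69), Cd37 (2.37), Trem2 (1.92), Rpp21 (1.91), Rabac1 (1.83) and Hbegf (1.18).

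Single arrays far from the rest of their group were looked for in both WT groups of 4 arrays, over 25 genes and 4 marker or quality values; groups of 3 were not tested, and chance marks about 1 in 20 groups. WT mock replicate 3 stood high for Cxcl2 (14911), Cxcl1 (388), Tnf (283) and the summed neutrophil markers (30488). WT e7 replicate 3 stood high for the neutrophil sum (9561). WT e7 replicate 4 stood low for Cflar (1031), and WT mock replicate 4 stood low for Dnajb1 (1388) and high for Mcm2 (1271).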

How the results depend on the processing

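Counts of called probe sets changed with most settings, and the causes were not tested. For e7 against mock, 1 call as deposited became 84 with the floor of 50, 2 with 50 added to every signal, 7 after quantile normalization, 2 in a fit of the 21 KO arrays, 3 with trend and robust moderation, 35 with array weights, 2 with the percent of probe sets under 50 as a covariate (chosen after seeing the data) and 5 with a group mean of at least 100. The 84 calls with the floor became 1 as deposited, 45 with a floor of 100, 2 with 50 added, 28 in the 21 KO arrays, 424 with array weights and 24 with a group mean of at least 100; quantile normalization gave 56 calls, 33.9% of them higher against 21.4%, and 46 of the 84 were among them. In a fit of the 6 arrays compared, limma called 0 in either setting, with 1774 as deposited and 2023 with the floor at an unadjusted p under 0.05. Leaving out 1 array gave 1 to 13 calls as deposited and 23 to 287 with the floor. For KO against WT, 43 calls as deposited became 508 with the floor, 341 with 50 added, 0 in the arrays compared (2252 unadjusted), 336 with trend and robust moderation, 2402 with array weights, 5 with the 3' to 5' ratio as a covariate, 12 with the percent under 50 and 744 with a group mean of at least 100, and 5 to 2389 without 1 array. With the floor, 508 calls became 43 as deposited, 7 in the arrays compared, 2584 with array weights, 82 with the 3' to 5' ratio and 813 with a group mean of at least 100, and 35 to 2891 without 1 array; after quantile normalization 43.4% of 477 were higher in KO, against 54.3%, and as deposited 41.2% of 51 against 51.2%. For 4 h against 2 h, 384 calls as deposited became 951 with the floor, 1279 with 50 added, 225 in the arrays compared, 1704 with array weights, 212 with the 3' to 5' ratio, 0 with the percent under 50 and 204 with a group mean of at least 100, and 94 to 641 without 1 array. With the floor, 951 became 384 as deposited, 375 with a floor of 100, 488 after quantile normalization, 546 in the 21 KO arrays and 484 with a group mean of at least 100, and 548 to 1401 without 1 array. For e7 against e6, 203 calls as deposited became 2171 with the floor, 1441 with 50 added, 477 after quantile normalization, 1 in the arrays compared, 101 in the 21 KO arrays, 932 with array weights, 57 with the 3' to 5' ratio and 1 with the percent under 50, and 35 to 230 without 1 array. With the floor, 2171 became 203 as deposited, 1056 with a floor of 100, 1441 with 50 added, 979 after quantile normalization, 242 in the arrays compared, 1425 in the 21 KO arrays, 1131 with array weights and 886 with a group mean of at least 100, and 1275 to 2686 without 1 array.

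With the replicate number as a block, e7 against mock gave 1 call as deposited and 6 with the floor, KO against WT 68 and 676, 4 h against 2 h 368 and 636, and e7 against e6 96 and 1482. Deviations of same-numbered e7 and mock arrays from their group means correlated at -0.02, 0.21 and -0.04, and those of differently numbered arrays at -0.22 to 0.22. With 3 arrays a group, these values cannot decide whether same-numbered arrays share a batch, which the labels do not state.

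The difference of Pde10a was 0 with a floor of 100. Signs turned for Ccl6 (0.024), Fabp5 (0.074) and Clec7a (0.040) after quantile normalization, and Hmox1 without mock replicate 3 (-0.084, with 0.85 the highest value without 1 array); none of these 4 was called. Cxcl1 was called in 16 of 18 alternatives, not as deposited or in the 6 arrays alone. With 3 arrays a group and about 4 in 10 probe sets under a signal of 50, small changes and dim genes are poorly measured.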
